A study of Mus musculus with 14 samples.

Results

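The genes described here are 38 genes that macrophages and monocytes transcribe, with weight on the resident macrophages of the peritoneal cavity. They were taken by name from a list and followed over all 14 arrays of a mouse study of regulatory T (Treg) cells, the CD4 T cells that depend on the transcription factor Foxp3. Of the 38, 36 passed a filter on signal (a scaled signal of at least 100 on at least 3 arrays) and were tested among 12212 genes. A filter of this kind keeps a gene that is high in only 1 group, and 15 of the 36 reached 100 on fewer than 3 of the 9 arrays outside the tumor group, so their count carries no weight of its own. The other two, Ms4a7 and Aif1, each reached 100 on 1 array only.

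RNA from sorted Treg cells was measured on Affymetrix arrays of 45101 probe sets, and the labels place the arrays in 4 sets. All sorted cells derived from 129/SvJ knock-in animals (H-2b) in which the Foxp3 gene also drives GFP. Naive replicates 1 to 3 and 4 to 6 are labelled as naive cells from spleen, and the submitters assign the former as controls of the GVHD arrays and the latter as controls of the tumor arrays. The 3 GVHD-activated samples were sorted on day 4 from spleens of BALB/c recipients (H-2d), given 900 cGy of irradiation, 2000000 bone marrow cells of wild-type 129/SvJ mice and 2000000 CD4+ and CD8+ T cells of the knock-in mice, which start graft-versus-host disease (GVHD). The 5 tumor-activated samples were sorted on day 5 from the ascites of knock-in mice injected in the peritoneum with 1000000 P815 cells, a mastocytoma line of the DBA/2 strain (H-2d). The naive and tumor-activated samples thus differ in tissue as well as in activation, spleen in one case and peritoneal fluid in the other. For naive replicates 1 to 3 the protocol text covers naive cells from resting spleens and also cells of mice given RMAS tumor cells, and it is their title and tissue label that place these 3 arrays among the naive cells. A sort purity is given for naive replicates 4 to 6 and both activated groups, and none for naive replicates 1 to 3. Ages, and whether animals were pooled, are not given in the labels used here.

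Macrophages are phagocytes that take up dying cells, microbes and lipoproteins through scavenger receptors, Fc receptors and complement, and break them down in lysosomes. Their survival depends on the receptor for colony stimulating factor 1, and their gene programme on the transcription factor PU.1. The large resident macrophages of the mouse peritoneum are known for the transcription factor Gata6 and for high F4/80, the product of Adgre1, while resting T cells are not known to transcribe most of these genes.

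All values below are MAS5 signals after every array was rescaled to the same trimmed mean of 500. Tests used limma on log2(signal + 32), with Benjamini-Hochberg adjustment over the 12212 genes, and the words rose and fell are kept for genes with an adjusted p under 0.05. The offset of 32 makes the printed folds of dim genes smaller than the ratios of their signals.

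Before any comparison, 2 arrays stood apart in the macrophage genes. Naive replicate 6 was the highest of naive replicates 4 to 6 in 28 of the 36 genes, at least 2 times above both others in 14 and at least 5 times above both in 8. Tumor-activated replicate 3 was the highest tumor array in 21 of the 36 genes. The shares of all genes for these counts were not computed, so the counts are not read as particular to macrophage genes. The summed signal of the 36 genes was 5017 to 5758 on naive replicates 1 to 3, 5080, 2890 and 16623 on naive replicates 4, 5 and 6, 5351 to 6661 on the GVHD arrays, and 75264, 66514, 189299, 119765 and 124942 on tumor-activated replicates 1 to 5. Every tumor array therefore carried a larger summed macrophage signal than every other array, and naive replicate 6 came next.

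Signals of T cell, B cell and mast cell genes also differed between the tumor arrays and the others. The 15 measured T cell receptor and lineage genes summed to 94103 to 165556 on the 6 naive arrays and 139820 to 160639 on the GVHD arrays, but to 55586, 65625, 9946, 30081 and 28781 on tumor-activated replicates 1 to 5. In the tumor comparison 11 of these 15 fell and 0 rose. Cd4, the co-receptor the sorted cells should carry, read 21.6 on tumor-activated replicate 3 and 687 to 1298 on the other tumor arrays. The only probe set of Foxp3 reached at most 108 on any array and passed no filter, so it gives no check of the sort. The 12 measured mast cell and mastocytoma genes summed to 1069 to 2406 on naive replicates 1 to 5, 8562 on naive replicate 6, 664 to 912 on the GVHD arrays and 73926 to 144409 on the tumor arrays, and 9 of them rose. Of the other lists, 7 of 10 B cell genes fell and 0 rose, 1 of 5 dendritic cell genes rose and 1 fell, and 0 of 6 neutrophil and 0 of 5 mesothelial and stromal genes passed the test. No macrophage gene of the 38 stands in another of these lists, which follows from how the lists were drawn up. It does not make the 38 particular to macrophages, as mast cells transcribe Fcer1g too. What part other cells in the sorted samples had in the values below was not tested, and in RNA of mixed cells more cells of a type and more RNA per cell cannot be told apart.

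**Figure D1:**
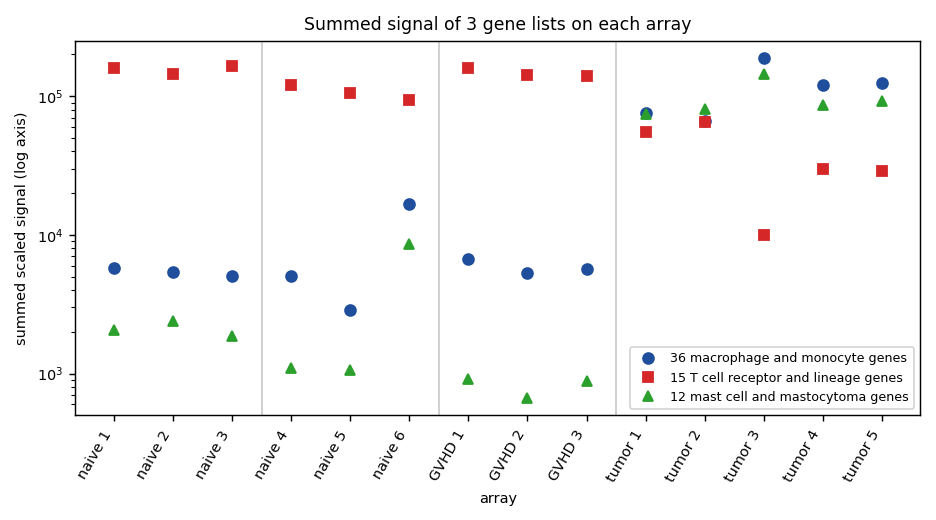
Summed scaled signal (log axis) of the macrophage genes, of T cell receptor and lineage genes and of mast cell and mastocytoma genes on each of the 14 arrays, 1 point per array. The macrophage sum was 66514 to 189299 on the 5 tumor-activated arrays and 2890 to 16623 on the other 9, and tumor-activated replicate 3 had the highest macrophage sum and the lowest T cell sum, 9946.

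In the samples sorted from ascites, macrophage genes of all 8 roles described below were higher. Of the 36 genes tested, 32 rose and 0 fell in the tumor-activated arrays against naive replicates 4 to 6, where 16.2% of all genes tested rose and 15.5% fell. The median change was 3.03 on the log2 scale, beside -0.06 over all genes. At least 4-fold rises were found for 24 of the 32 genes, at least 10-fold for 17 and at least 20-fold for 10. Cd163, Trem2, Fcgr1 and Clec4n did not pass the test. In 31 of the 36 genes every tumor array lay above every array of naive replicates 4 to 6, as was so for 16.5% of all genes tested. In 25 of the 36 every tumor array lay above all 9 other arrays, as was so for 8.15% of all genes tested. Without any filter on signal, 32 of the 38 rose, where 10.2% of all genes did.

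**Figure D2:**
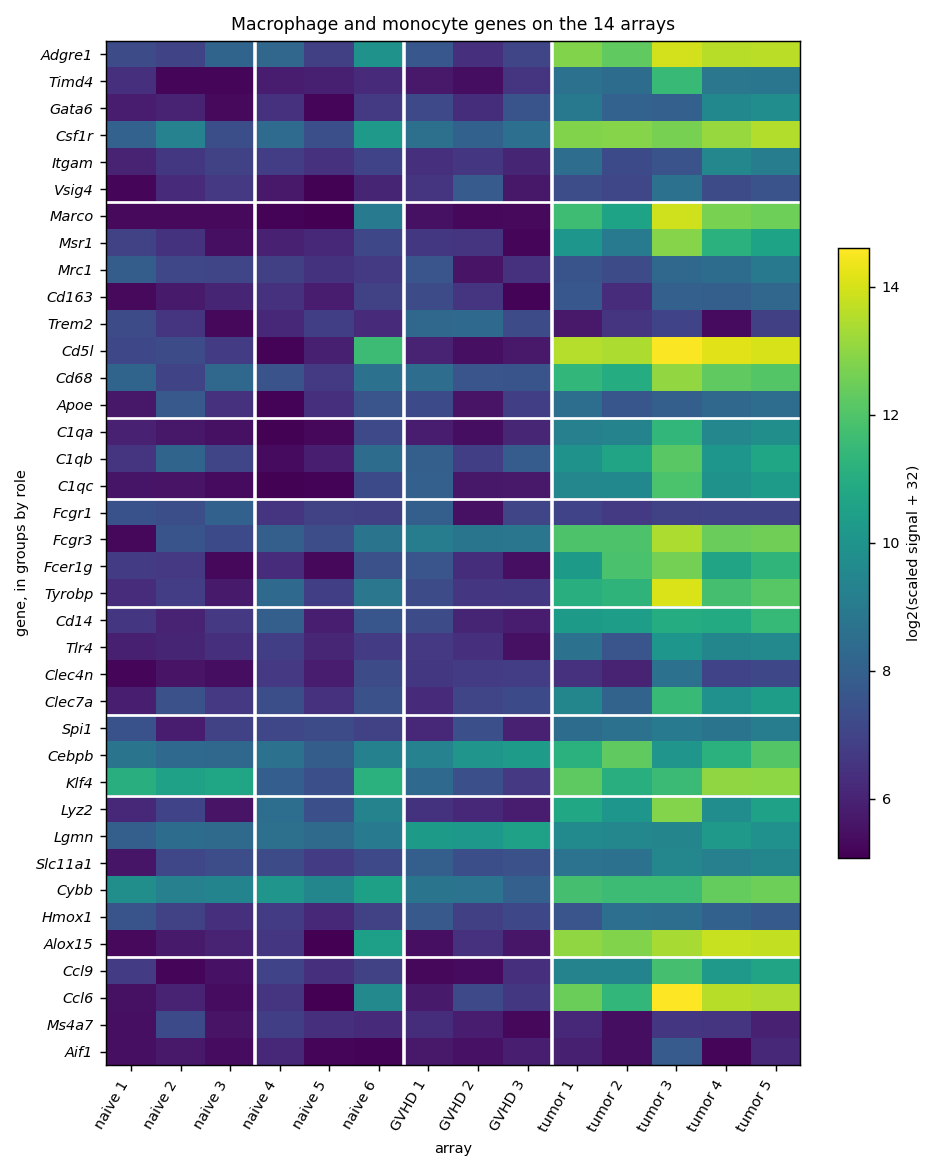
Scaled signal of the 38 macrophage and monocyte genes (rows, ordered by role) on the 14 arrays (columns, by group), shown as log2(signal + 32). The 5 tumor-activated columns are the lightest in most rows, with Cd5l, Ccl6, Adgre1 and Alox15 among the lightest. Naive replicate 6 is lighter than naive replicates 4 and 5 in 28 of the 36 tested genes, and Trem2, Fcgr1, Ms4a7 and Aif1 are dark on nearly all arrays.

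The starts of several of these genes hold the purine-rich word GAGGAA, the core of the PU-box to which PU.1 is known to bind. Promoter sequences were taken from RefSeq (mouse assembly GRCm38.p6), whose table has 26 of the 38 genes, and the 250 bases before the first listed start of each were searched on both strands. GAGGAA was found in 15 of the 26 (57.7%) and in 23.1% of the 27025 genes of the table. Among the 21 of these that rose it was found in 12 (57.1%), so the genes that rose held it no more often. Fcgr1 and Trem2, which did not pass the test, hold it. Ccl6 and Fcer1g, which rose 66.6-fold and 32.2-fold, do not. Another word, TTGCNNAA, which stands for sites of the C/EBP family, was found in 2 of the 26 (7.69%) and in 9.55% of all genes. The words do not overlap each other in the stretches printed here. A match is a stretch of letters and was not tested as a site. The stretches before Cd5l, Marco, Fcgr3 and C1qc are given because these genes rose 83.8-fold, 58.0-fold, 21.9-fold and 21.0-fold in the tumor-activated arrays and each holds GAGGAA. Sequences run 5′ to 3′ on the gene's strand and end at the base before the start, and capitals mark GAGGAA, its reverse complement TTCCTC, and in Fcgr3 also TTAAGCAA, which is TTGCNNAA on the other strand. The stretches are chr3:87357631-87357880 (plus strand) for Cd5l, chr1:120505025-120505274 (minus strand) for Marco, chr1:171059404-171059653 (minus strand) for Fcgr3 and chr4:136892915-136893164 (minus strand) for C1qc.
Cd5l: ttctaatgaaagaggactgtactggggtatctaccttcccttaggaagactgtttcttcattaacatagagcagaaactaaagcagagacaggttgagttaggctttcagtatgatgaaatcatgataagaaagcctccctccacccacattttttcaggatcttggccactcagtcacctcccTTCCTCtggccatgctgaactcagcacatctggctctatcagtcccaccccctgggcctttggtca
Marco: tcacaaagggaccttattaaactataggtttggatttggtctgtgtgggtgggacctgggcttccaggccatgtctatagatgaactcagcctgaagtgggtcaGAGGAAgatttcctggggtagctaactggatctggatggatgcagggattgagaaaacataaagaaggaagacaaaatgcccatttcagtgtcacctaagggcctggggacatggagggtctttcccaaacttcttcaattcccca
Fcgr3: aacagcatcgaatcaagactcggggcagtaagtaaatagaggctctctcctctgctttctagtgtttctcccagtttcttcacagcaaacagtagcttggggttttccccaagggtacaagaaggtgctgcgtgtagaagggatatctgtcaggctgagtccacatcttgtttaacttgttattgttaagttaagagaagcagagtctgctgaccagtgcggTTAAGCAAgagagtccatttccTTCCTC
C1qc: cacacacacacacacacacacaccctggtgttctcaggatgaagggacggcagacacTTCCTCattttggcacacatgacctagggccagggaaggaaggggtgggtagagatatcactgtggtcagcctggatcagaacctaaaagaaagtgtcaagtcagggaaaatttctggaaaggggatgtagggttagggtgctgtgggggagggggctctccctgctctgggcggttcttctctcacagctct
The word begins 66 bases before the start in Cd5l, 146 in Marco, 6 in Fcgr3 and 193 in C1qc, and the other word of Fcgr3 begins 28 bases before the start.

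The genes that mark resident macrophages rose in 6 of 6 cases, by 3.08-fold to 29.8-fold with a median log2 change of 3.01. Csf1r, the receptor for colony stimulating factor 1, read 309, 137 and 1156 on naive replicates 4 to 6 and 7154, 7536.5, 6406, 8867 and 11696 on tumor-activated replicates 1 to 5. On naive replicates 1 to 3 it read 233.5, 604 and 132, and on the GVHD arrays 356, 226 and 343. All 5 tumor arrays lay above all 9 others, the tumor arrays were close to each other, and naive replicate 6 was the highest of the rest. The log2 change of Csf1r was 4.32 ± 0.51 (SE; limma adjusted p = 1.66e-05). Without naive replicate 6 the rise was 34.0-fold, and without naive replicate 5 it was 12.9-fold. Both other probe sets of Csf1r were also higher, by a log2 of 4.37 and 2.55. On the one with 2.55 the tumor arrays, at 515 to 1801, still lay above all others. There naive replicate 6 read 158.5, below naive replicate 4 at 230.

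Adgre1, which encodes the surface protein F4/80, read 266.5, 86.1 and 941 on naive replicates 4 to 6 and 7107, 4869, 15896, 12219.6 and 12472 on tumor-activated replicates 1 to 5. Its signals were 124, 97.3 and 253 on naive replicates 1 to 3 and 168, 52.1 and 103 on the GVHD arrays. The tumor arrays did not overlap with any other, and naive replicate 6 was again the highest outside them. Adgre1 rose 29.8-fold (log2 change 4.90 ± 0.55, SE; limma adjusted p = 1.25e-05), with 51.6-fold without naive replicate 6 and 18-fold without naive replicate 5. Gata6, the transcription factor of large peritoneal macrophages, rose 6.67-fold from between 5.2 and 70.2 on naive replicates 4 to 6 to between 226 and 834 on the tumor arrays. Among the tumor arrays it was lowest on replicate 3. Both other probe sets of Gata6 differed less, by a log2 of 1.60 and 0.86 beside 2.74 for the one used. On the probe set with 0.86 the groups overlapped, with tumor-activated replicate 3 at 62.4 and naive replicate 5 at 82.6.

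Timd4, a receptor for phosphatidylserine on dying cells, rose 9.70-fold. It read 368, 312, 2898.5, 427 and 419 on tumor-activated replicates 1 to 5, where replicate 3 stood far above the other 4, which differed little, and 23.1 to 42.9 on naive replicates 4 to 6. Itgam, the integrin chain CD11b, rose 3.08-fold, to 115 to 687 on the tumor arrays, and this call was lost without naive replicate 5 (2.76-fold, limma adjusted p = 0.0622). Vsig4, a complement receptor of resident macrophages, rose 3.84-fold but stayed dim, at 105 to 361.

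Of the 8 scavenger and lipid receptors, 6 rose, with changes from 1.08-fold to 83.8-fold and a median log2 change of 3.06. Cd5l, a secreted scavenger-receptor protein of macrophages (also called AIM), had the largest rise of the 36 genes over all arrays. That rank rests on naive replicate 4: without it Ccl6 (55.5-fold), Alox15 (48.1-fold) and Marco (37.9-fold) rose more than Cd5l (36.6-fold). Its signals were 3.8, 28 and 3049 on naive replicates 4 to 6 and 11879, 11005, 23856, 18569 and 16459 on tumor-activated replicates 1 to 5. It read 109.6, 122 and 76.5 on naive replicates 1 to 3 and 33.3, 12.1 and 20.2 on the GVHD arrays. Naive replicates 4 and 5 were near the bottom of the scale, naive replicate 6 lay between them and the tumor arrays, and the tumor arrays lay above all others. Cd5l rose 83.8-fold (log2 change 6.39 ± 0.94, SE; limma adjusted p = 0.000123). The value depends on the control arrays: it was 339-fold without naive replicate 6 and 47.4-fold without naive replicate 5.

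Cd68, a lysosomal glycoprotein used as a pan-macrophage marker, read 152, 70.6 and 368 on naive replicates 4 to 6 and 2669, 1966, 8511, 4929 and 4177 on the tumor arrays. It read 249, 99.6 and 285 on naive replicates 1 to 3 and 325, 159.7 and 156 on the GVHD arrays. Its tumor arrays lay above all others, and naive replicate 6 was only slightly above the next highest array. Cd68 rose 20.1-fold (log2 change 4.33 ± 0.49, SE; limma adjusted p = 1.25e-05). Marco, a scavenger receptor for bacteria, read 4.3, 2.4 and 463 on naive replicates 4 to 6 and 1525 to 15550.2 on the tumor arrays. It rose 58.0-fold, with 140-fold without naive replicate 6, 37.9-fold without naive replicate 4 and 36.9-fold without naive replicate 5.

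Msr1, the class A scavenger receptor, rose 20.1-fold. Mrc1, the mannose receptor, rose 2.69-fold to 124 to 460.3, a call that was lost without naive replicate 5, without naive replicate 6 or without tumor-activated replicate 5 (limma adjusted p = 0.0852, 0.0577 and 0.0515). Apoe, the apolipoprotein that macrophages secrete with cholesterol, rose 3.44-fold to 165 to 336, a call lost without naive replicate 4 or 5 (limma adjusted p = 0.132 and 0.0605). These are the dimmest of the scavenger and lipid genes that rose.

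Cd163, the haemoglobin scavenger receptor, and Trem2, a lipid-sensing receptor, did not pass the test. Cd163 read 54.4, 24.8 and 88.8 on naive replicates 4 to 6, 171, 45.8, 224.5, 218 and 269 on tumor-activated replicates 1 to 5, 7.7, 22.5 and 35.4 on naive replicates 1 to 3 and 123, 58.4 and 4.1 on the GVHD arrays. In Cd163, 4 tumor arrays lay above all naive arrays and tumor-activated replicate 2 lay within them, and the log2 difference was 1.24 ± 0.49 (SE; limma adjusted p = 0.0659). Trem2 read 38.2, 82.4 and 43.6 on naive replicates 4 to 6 and 20.3, 61.4, 94.3, 8.7 and 85.9 on the tumor arrays. Those groups overlapped fully, with a log2 difference of -0.11 ± 0.48 (SE; limma adjusted p = 0.889).

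The 3 chains of complement C1q, the recognition molecule of the classical complement pathway that tissue macrophages secrete, all rose, 15.7-fold for C1qa, 17.6-fold for C1qb and 21.0-fold for C1qc. C1qb read 9.3, 26.7 and 316 on naive replicates 4 to 6 and 937, 1575, 4576.5, 1047 and 1605 on tumor-activated replicates 1 to 5. On naive replicates 1 to 3 it read 57.9, 252 and 103, and on the GVHD arrays 219.6, 83 and 200.3. The tumor arrays lay above all others, with replicate 3 far above the other 4. C1qc read 3.3, 3.6 and 117 on naive replicates 4 to 6 and 678, 705, 3844, 935 and 1251 on the tumor arrays, beside 16.7, 15.9 and 8.3 on naive replicates 1 to 3 and 222, 19.5 and 20.2 on the GVHD arrays.

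In all 3 C1q genes naive replicates 4 and 5 were at the bottom of the scale and naive replicate 6 was above them, for C1qa at 114 beside 3.3 and 7.1. Against controls this dim the offset of 32 sets much of the fold, so the sizes of the 3 rises are not compared, and both other probe sets of C1qb differed by a log2 of 5.16. The log2 changes were 3.97 ± 0.50 (SE) for C1qa, 4.14 ± 0.63 for C1qb and 4.39 ± 0.63 for C1qc, with limma adjusted p of 3.05e-05, 0.000159 and 8.96e-05. Without naive replicate 6 they rose 24.8-fold, 33.7-fold and 33.9-fold, and C1qb rose 11.6-fold without naive replicate 4.

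Among Fc receptors and their signal adapters 3 of 4 rose. Fcgr3, the low-affinity activating receptor for IgG, read 218, 127 and 394 on naive replicates 4 to 6 and 3905, 3873, 11127, 5506 and 5903 on the tumor arrays. It read 6.9, 154 and 115 on naive replicates 1 to 3 and 515.5, 402 and 417 on the GVHD arrays. The order of groups was tumor, then GVHD, then naive, with no overlap between the tumor arrays and any other and with naive replicate 6 next to the GVHD arrays. Fcgr3 rose 21.9-fold (log2 change 4.45 ± 0.47, SE; limma adjusted p = 8.07e-06).

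Tyrobp, the adapter DAP12 that passes on signals of Trem2 and other myeloid receptors, read 288, 81.5 and 429 on naive replicates 4 to 6 and 2095, 2449, 17008, 3492.5 and 4476 on tumor-activated replicates 1 to 5. On naive replicates 1 to 3 it read 45.7, 79 and 22.8, and on the GVHD arrays 119.7, 64.1 and 67. Tumor-activated replicate 3 was several times above the others, all of which lay above every array outside the group. Tyrobp rose 16.7-fold (log2 change 4.06 ± 0.57, SE; limma adjusted p = 7.86e-05), and 11.1-fold without naive replicate 5. Fcer1g, the common Fc receptor gamma chain, which mast cells transcribe too, rose 32.2-fold to 1202 to 6256.

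Fcgr1, the high-affinity IgG receptor, did not pass the test. It read 57.7, 91.5 and 85.7 on naive replicates 4 to 6, 94.8, 70.1, 89, 99.6 and 98.6 on the tumor arrays, 146, 132 and 227 on naive replicates 1 to 3 and 214, 13 and 101 on the GVHD arrays. The groups overlapped, no tumor array reached 100, and the log2 difference was 0.16 ± 0.41 (SE; limma adjusted p = 0.810). These are values of the probe set with the higher mean log2 signal. The other probe set of Fcgr1 read 12.9, 46.2 and 55.5 on naive replicates 4 to 6 and 134, 76.7, 1062, 114 and 118 on tumor-activated replicates 1 to 5. There every tumor array lay above naive replicates 4 to 6, by a log2 difference of 1.66, and the mean over both probe sets differed by 0.91 (limma adjusted p = 0.116).

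Of the 4 receptors for microbial patterns 3 rose. Cd14, the lipopolysaccharide co-receptor, read 218, 26.1 and 166 on naive replicates 4 to 6 and 1186, 1324, 1976, 1899.5 and 2749 on tumor-activated replicates 1 to 5. It read 63.9, 33.5 and 67.8 on naive replicates 1 to 3 and 119, 34.8 and 25.7 on the GVHD arrays. All tumor arrays lay above all others and within a narrow range. Cd14 rose 12.5-fold (log2 change 3.65 ± 0.45, SE; limma adjusted p = 2.39e-05), and 8.01-fold without naive replicate 5.

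Clec7a, the beta-glucan receptor Dectin-1, read 134, 54.1 and 143 on naive replicates 4 to 6 and 669.6, 240.2, 2903, 915 and 1315 on the tumor arrays. Its other signals were 26, 141.5 and 68.6 on naive replicates 1 to 3 and 41.5, 102 and 115 on the GVHD arrays. The tumor arrays spread widely, from replicate 2 at the bottom to replicate 3 at the top, and did not overlap with the rest. Clec7a rose 6.89-fold (log2 change 2.78 ± 0.58, SE; limma adjusted p = 0.00195). Tlr4, the receptor that works with Cd14, rose 5.62-fold to 159 to 1063.

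Clec4n, the receptor Dectin-2, read 69.8, 23.8 and 122 on naive replicates 4 to 6, 55.2, 32, 362, 95.5 and 109 on the tumor arrays, 4.8, 15.2 and 10.5 on naive replicates 1 to 3 and 65.1, 74.8 and 78.8 on the GVHD arrays. Only tumor-activated replicate 3 stood clear of naive replicates 4 to 6, and the log2 difference was 0.46 ± 0.48 (SE; limma adjusted p = 0.502). Against naive replicates 1 to 3, which were lower, the difference was 1.65 (limma adjusted p = 0.0104).

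All 3 transcription factors rose. Klf4, a zinc-finger factor of monocytes and resident macrophages that resting T cells also transcribe, read 211, 136 and 2274 on naive replicates 4 to 6 and 4776, 2069.7, 3010.1, 8325 and 8109 on the tumor arrays. It read 2063, 1449 and 1644.5 on naive replicates 1 to 3 and 292, 137 and 68.4 on the GVHD arrays. The tumor arrays overlapped with naive replicate 6, and naive replicates 4 and 5 lay far below the other 4 naive arrays. Klf4 rose 10.2-fold (log2 change 3.34 ± 0.68, SE; limma adjusted p = 0.00171), 22.9-fold without naive replicate 6 and 6.17-fold without naive replicate 5. Against naive replicates 1 to 3 it differed by 2.66-fold (limma adjusted p = 0.0991). The other probe set of Klf4 read 312 to 1387 on the tumor arrays, 1134 to 1663 on naive replicates 1 to 3 and 49.9 to 452 on naive replicates 4 to 6.

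Cebpb, a factor of macrophage activation that many cell types transcribe, read 377.5, 204 and 587 on naive replicates 4 to 6 and 2239, 4994, 1021, 2268 and 4266 on tumor-activated replicates 1 to 5. On naive replicates 1 to 3 it read 392, 289.7 and 272, and on the GVHD arrays 600.5, 1027 and 1225. Tumor-activated replicate 3 was the lowest of its group and overlapped with the GVHD arrays, while the other tumor arrays lay above all others. Cebpb rose 6.65-fold (log2 change 2.73 ± 0.44, SE; limma adjusted p = 0.000269). Spi1, the gene of PU.1, rose 3.2-fold to 316 to 523, with the 5 tumor arrays within a narrow range above all 9 others.

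The 6 lysosomal, oxidative and metabolic genes all rose, by 2.06-fold to 63.2-fold with a median log2 change of 2.00. Cybb, the membrane subunit gp91phox of the phagocyte NADPH oxidase, read 1027, 670.0 and 1398 on naive replicates 4 to 6 and 3481, 3085, 3048, 5249 and 5776 on the tumor arrays. It read 848, 559.6 and 627 on naive replicates 1 to 3 and 396.5, 382 and 224 on the GVHD arrays. On this probe set signals well above 100 were present on every array, and the tumor arrays still lay above all others. Cybb rose 3.93-fold (log2 change 1.97 ± 0.31, SE; limma adjusted p = 0.000184). Both other probe sets of Cybb were dimmer, differed by a log2 of 1.89 and 0.98 and did overlap. There tumor-activated replicate 2 read 167 and 151, beside 316.5 and 168 on naive replicate 6.

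Lgmn, the lysosomal protease legumain, had the smallest rise of the 32 over all arrays. It read 352, 299 and 499.5 on naive replicates 4 to 6 and 759.7, 677, 639, 1143 and 909 on the tumor arrays, beside 217.5, 316 and 296 on naive replicates 1 to 3 and 1186, 1122 and 1444 on the GVHD arrays. The tumor arrays lay above all naive arrays, and the highest of them overlapped with the GVHD arrays, which were highest of all. Lgmn rose 2.06-fold (log2 change 1.04 ± 0.25, SE; limma adjusted p = 0.00575).

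Lyz2, lysozyme M of macrophages and neutrophils, read 336, 137 and 609.9 on naive replicates 4 to 6 and 1737, 1048, 7197, 826 and 1453 on tumor-activated replicates 1 to 5. It read 39.9, 94 and 15.6 on naive replicates 1 to 3 and 56.3, 39.6 and 25.7 on the GVHD arrays. Tumor-activated replicate 3 was far above the other tumor arrays, and naive replicates 4 to 6 lay between those and the remaining groups. Lyz2 rose 5.19-fold (log2 change 2.38 ± 0.58, SE; limma adjusted p = 0.00558).

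Alox15, the 12/15-lipoxygenase that is abundant in resident peritoneal macrophages, read 63.3, 1.6 and 1356 on naive replicates 4 to 6 and 8344, 7039, 10469, 14354 and 13475 on the tumor arrays. The tumor arrays spread by 2.04-fold only, and naive replicate 6 alone among the other arrays reached 100. Alox15 rose 63.2-fold, 184-fold without naive replicate 6 and 28.6-fold without naive replicate 5. Slc11a1, the phagosomal metal transporter Nramp1, rose 4.10-fold to 368 to 692, and Hmox1, the haem-degrading enzyme, rose 2.78-fold to 161 to 347.

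Both chemokines rose, and the other 2 genes of that group, Ms4a7 and Aif1, did not pass the filter. Ccl6, a chemokine of macrophages and other myeloid cells, read 59.9, 1.8 and 715 on naive replicates 4 to 6 and 5666.5, 2634, 24889, 12276 and 11390.2 on the tumor arrays. It read 13.6, 32.8 and 9.9 on naive replicates 1 to 3 and 22.7, 113 and 65.6 on the GVHD arrays. Tumor-activated replicate 3 was highest and replicate 2 lowest, and naive replicate 6 was the highest of the other arrays. Ccl6 rose 66.6-fold (log2 change 6.06 ± 0.79, SE; limma adjusted p = 3.95e-05), 158-fold without naive replicate 6 and 33.6-fold without naive replicate 5.

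Ccl9, a related myeloid chemokine, read 96.3, 53.1 and 92.1 on naive replicates 4 to 6 and 614, 639, 3534, 1131 and 1548 on tumor-activated replicates 1 to 5, beside 73.5, 5.8 and 14.6 on naive replicates 1 to 3 and 6.5, 9 and 51.5 on the GVHD arrays. Unlike Ccl6 it was not raised on naive replicate 6, and its tumor arrays lay above all others. Ccl9 rose 11.1-fold (log2 change 3.48 ± 0.50, SE; limma adjusted p = 0.000103). Its other probe set differed by a log2 of 1.17 and did overlap. It read 78.7, 27.8, 331, 116 and 118 on tumor-activated replicates 1 to 5 and 38.6, 12.5 and 45.1 on naive replicates 4 to 6. Ms4a7, a membrane protein of monocyte-derived and tissue macrophages, was dim throughout, with at most 64 on the tumor arrays. Aif1, the actin-binding protein Iba1, reached 193 on tumor-activated replicate 3 and at most 39.4 on all other arrays.

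**Figure D3:**
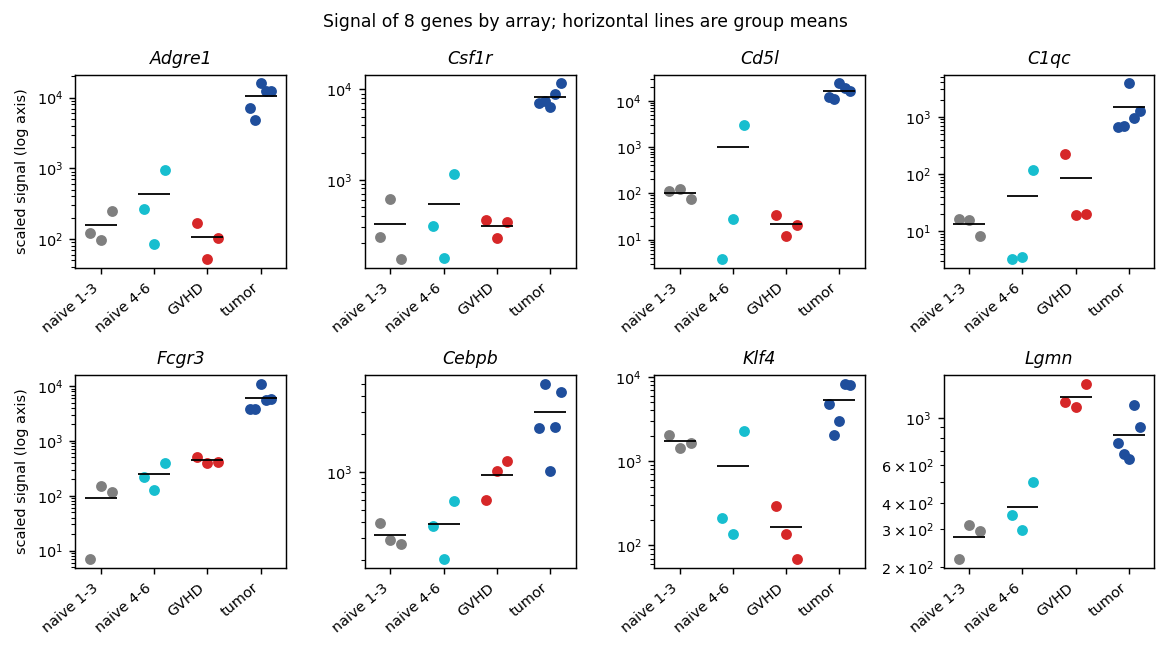
Scaled signal (log axis) of 8 macrophage genes on each array, 1 point per array with a line at the group mean, grouped as naive replicates 1 to 3, naive replicates 4 to 6, GVHD-activated and tumor-activated. For Cd5l the tumor-activated arrays sit at 11005 to 23856 with naive replicate 6 at 3049, for Lgmn the GVHD-activated arrays are highest at 1122 to 1444, and for Klf4 the GVHD-activated arrays are low at 68.4 to 292.

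Probe sets of the same gene that passed the filter gave the same direction. The 38 genes have 61 probe sets with a single gene name, and 11 genes have several that passed the filter. In all 11 every such probe set was higher in the tumor-activated arrays than in naive replicates 4 to 6. In 8 of them every log2 difference was at least 1. The filter keeps probe sets that are high only in the tumor arrays, so this agreement is partly built in. Further probe sets of tested genes failed the filter. That of Tlr4 differed by -0.12 and that of Trem2 by 0.16, beside 2.49 and -0.11 for those used. Those of Marco and Clec4n kept the sign, at 0.88 and 0.03.

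The 5 tumor arrays ranged widely among themselves, with correlations between arrays of 0.878 to 0.982 over all probe sets, beside 0.946 to 0.974 for naive replicates 4 to 6. Replicate 3 was at least 2 times the median of the other 4 in 18 of the 36 genes and below that median in 10. It was 7.36 times that median for Timd4, 5.83 times for Msr1, 5.76 times for Lyz2, 5.73 times for Tyrobp and 4.69 times for C1qc. The genes that were lower on replicate 3 included Cebpb at 0.31 times, Itgam at 0.36, Gata6 at 0.39 and Klf4 at 0.47, and Csf1r and Alox15 were near level at 0.78 and 0.96. The macrophage genes thus did not move as 1 block between tumor arrays. Replicate 2 was the lowest tumor array in 20 of the 36 genes. For these counts of replicates 2 and 3, too, the shares of all genes were not computed. The ratio of the 3′ to the 5′ probe set of Gapdh, a sign of RNA degradation, was 19.9 on tumor-activated replicate 2 and 2.19 to 2.64 on the other tumor arrays, and 37.3% of all probe sets reached 100 on replicate 3 beside 45.6% to 55.4% on the other arrays. The part of these in the spread was not tested. Without tumor-activated replicate 3 the same 32 genes rose.

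**Figure D4:**
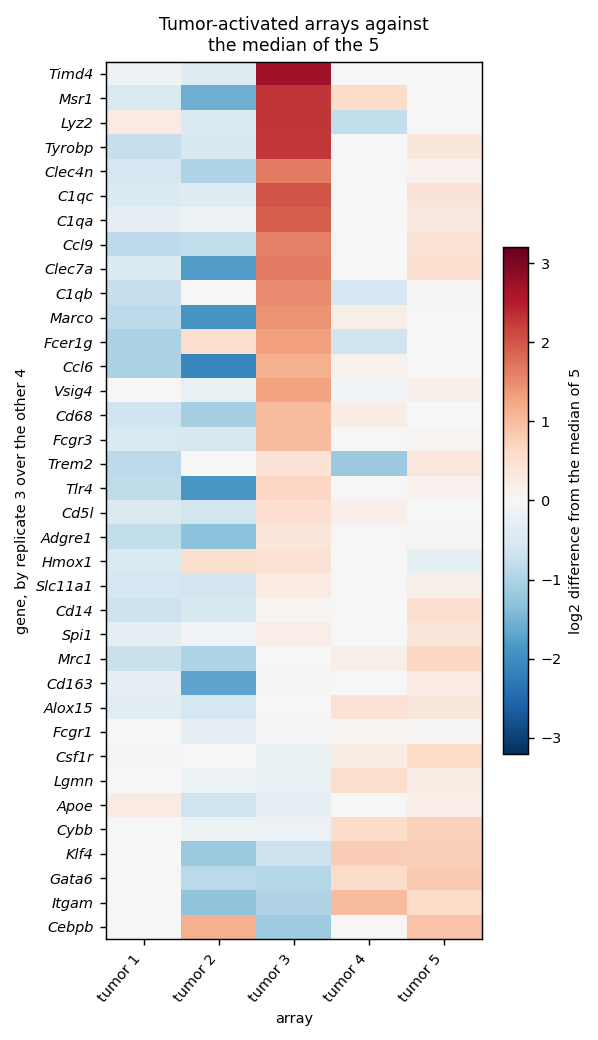
Heat map of the 36 tested macrophage genes (rows) on the 5 tumor-activated arrays (columns), each value the difference in log2(signal + 32) from the gene's median over the 5 arrays, red above and blue below it. Rows are ordered by the signal of replicate 3 over the median of the other 4, from 7.36 for Timd4 to 0.31 for Cebpb, and replicate 3 turns from red at the top to blue at the bottom.

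Many of these genes were raised on naive replicate 6, but 8 of the 36 were not highest there among naive replicates 4 to 6, Ccl9 and Cd14 among them. Signals of at least 100 were found for 24 of the 36 genes there (47.7% of all probe sets), beside 14 and 8 on naive replicates 4 and 5 (47.6% and 47.4%). Cd5l, Alox15, Csf1r, Adgre1, Ccl6 and Marco, picked for their high values there, read 3049, 1356, 1156, 941, 715 and 463. All tumor arrays lay above naive replicate 6 in 31 of the 36 genes, as was so for 27% of all genes tested. Without naive replicate 6 as a control 31 genes rose and Mrc1 was lost, and without both naive replicate 6 and tumor-activated replicate 3 the count was again 31. Mast cell genes were also higher on naive replicate 6, and the Gapdh ratio of naive replicates 4 to 6 ran from 7.45 to 19.1, with replicate 6 the lowest.

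Few of these genes changed with GVHD activation. In the GVHD-activated arrays against naive replicates 1 to 3, 4 of the 36 genes rose and 1 fell, where 9.83% of all genes tested rose and 12.5% fell, so the rising share of the macrophage genes is near the background and the falling share below it. The median change of the 36 was 0.15 on the log2 scale, beside -0.11 over all genes. The GVHD arrays had been scaled and written apart from their controls, and in this comparison a batch cannot be told apart from the group.

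Lgmn rose 4.18-fold (log2 change 2.06 ± 0.28, SE; limma adjusted p = 6.93e-05), with all 3 GVHD arrays more than 3 times above the highest of naive replicates 1 to 3. Fcgr3 rose 4.65-fold (limma adjusted p = 0.00596). Without naive replicate 1, which read 6.9 beside 154 and 115, it rose 2.87-fold (limma adjusted p = 0.0347), and against naive replicates 4 to 6 the log2 difference was 0.89 (limma adjusted p = 0.208). Cebpb rose 2.73-fold (limma adjusted p = 0.0450), and the call was lost without any 1 of naive replicates 1, 2 and 3 or of GVHD-activated replicates 2 and 3 (limma adjusted p from 0.0708 to 0.156). Lgmn, Fcgr3 and Cebpb also rose in the tumor comparison.

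Trem2 passed the test in the GVHD comparison only, and the difference between its changes in the 2 settings did not pass (limma adjusted p = 0.153). It read 279, 288 and 122 on the GVHD arrays and 123.5, 58.4 and 6.9 on naive replicates 1 to 3, where the lowest GVHD array fell just under the highest naive one. Trem2 rose 3.04-fold (limma adjusted p = 0.0401). The call was lost without naive replicate 2 or 3 or without GVHD-activated replicate 1 or 2 (limma adjusted p from 0.0712 to 0.197), and its other probe set, dim on all arrays, differed by a log2 of -0.14.

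Klf4 was the gene that fell. Its 3 GVHD arrays, at 68.4 to 292, lay far below naive replicates 1 to 3, at 1449 to 2063, and Klf4 fell 9.81-fold (limma adjusted p = 0.00516). Against naive replicates 4 to 6, of which replicates 4 and 5 read 211 and 136, the log2 difference was -1.36 (limma adjusted p = 0.183). Klf4 rose in the tumor setting and fell in the GVHD setting against the controls assigned to each, and also against all 6 naive arrays. Both sizes depend on the controls used. Against naive replicates 1 to 3 the tumor difference did not pass the test. The other probe set of Klf4 read 312 to 1387 on the tumor arrays beside 1134 to 1663 on naive replicates 1 to 3, mostly lower.

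The change in the tumor setting exceeded the change in the GVHD setting in 21 of the 36 genes and was smaller in 0, where 7.39% of all genes tested were higher and 3.39% lower in this contrast. The median of the difference was 2.78 on the log2 scale, beside 0.01 over all genes. Cd5l led with 7.71 ± 1.42 (SE; limma adjusted p = 0.00219). It read 12.1 to 33.3 on the GVHD arrays beside 76.5 to 122 on naive replicates 1 to 3. Klf4 followed with 6.64 ± 1.02 (limma adjusted p = 0.000656) and then Alox15, Marco and Adgre1 with 5.82, 5.80 and 5.34. For Lgmn, Trem2 and Clec4n the sign was the other way, at -1.02 ± 0.38 (limma adjusted p = 0.107), -1.71 ± 0.71 (limma adjusted p = 0.153) and -0.86 ± 0.72 (limma adjusted p = 0.526), and none of them passed the test. Which genes near the threshold passed changed when single arrays were left out. Timd4, Mrc1, C1qb, C1qc, Tlr4 and Spi1 were all lost without naive replicate 5, which left 15.

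**Figure D5:**
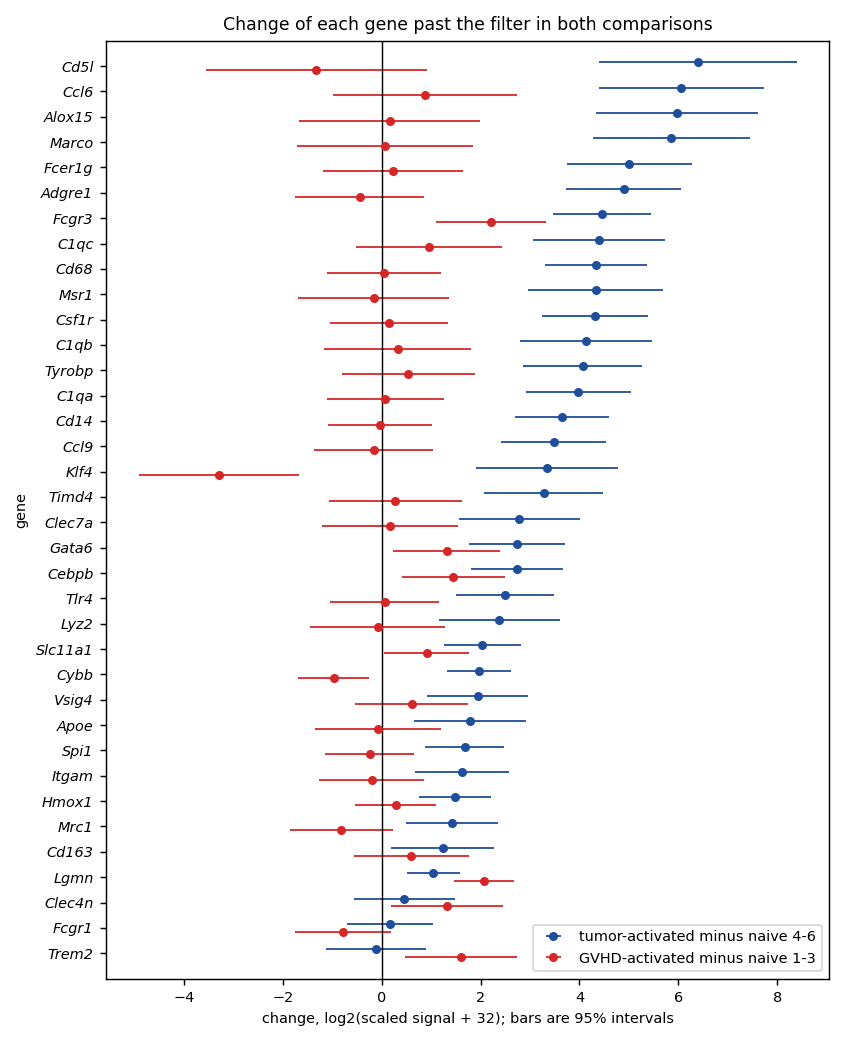
Change of each of the 36 tested macrophage genes in the tumor comparison and in the GVHD comparison, in log2(signal + 32) units, with 95% intervals of the limma fit. Tumor changes reach 6.39 for Cd5l and lie above 1 for all 32 genes that rose, while GVHD changes run from -3.29 for Klf4 to 2.22 for Fcgr3.

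Between the control sets 1 of these genes passed the test. Of the 36, only Lyz2 rose and 0 fell in naive replicates 4 to 6 against naive replicates 1 to 3, where 4.43% of all genes tested rose and 3.43% fell. Lyz2 read 336, 137 and 609.9 and 39.9, 94 and 15.6 on the respective arrays, without overlap, and rose 4.52-fold (limma adjusted p = 0.0492). That call was lost on leaving out any 1 of the 6 naive arrays (limma adjusted p from 0.0525 to 0.2). The median difference was 0.40 on the log2 scale, beside -0.07 over all genes.

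Macrophage and monocyte genes outside the 38 were measured on the same arrays. Of 87 further genes listed, 78 had a named probe set and 67 passed the filter. In the tumor-activated arrays 40 of the 67 rose and 2 fell (16.2% and 15.5% of all genes), with a median log2 change of 1.55. In the GVHD-activated arrays 5 rose and 8 fell (9.83% and 12.5% of all genes), both shares below the background. The largest rises were those of Arg1, the arginase of alternatively activated macrophages, with 144-fold, Saa3, an acute-phase protein, with 84.4-fold, and Chil3, the chitinase-like protein Ym1, with 82.9-fold. F10, coagulation factor X, and Fn1, fibronectin, both transcribed by peritoneal macrophages, followed with 73.9-fold and 62.7-fold.

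Arg1 read 5.4, 14.9 and 4882 on naive replicates 4 to 6 and 25552, 28669, 39333, 27486 and 28346 on tumor-activated replicates 1 to 5. Chil3 read 56.6, 27.9 and 16435 and 29424, 67523, 40695, 28443 and 29139.8 on the same arrays. Both showed the pattern of Cd5l, with naive replicates 4 and 5 near the bottom of the scale and naive replicate 6 far above them but below every tumor array. These sizes rest on single control arrays: with naive replicate 6 left out, Arg1 rose 706-fold, Saa3 293-fold, Chil3 505-fold, F10 192-fold and Fn1 185-fold. In the same order, the rises of these 5 genes with naive replicate 4 left out were 61.6-fold, 38.1-fold, 37-fold, 45.2-fold and 46.9-fold, and without naive replicate 5 they were 69-fold, 54-fold, 30.5-fold, 46.3-fold and 28.5-fold. When all its probe sets were averaged, F10 rose 24.5-fold and Fn1 14.5-fold.

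The probe sets of Cfp, the gene of the complement regulator properdin, disagreed. The one with the higher mean log2 signal, used for the counts, read 480 to 928 on naive replicates 4 to 6 and 159.5 to 266 on the tumor arrays, and fell 3.09-fold (limma adjusted p = 0.00155). The other read 28.1 to 285 on naive replicates 4 to 6 and 1118 to 4170 on the tumor arrays, and the mean of both rose 2.42-fold (limma adjusted p = 0.00517), so no direction is given for Cfp. Axl, a receptor for dying cells, fell 2.05-fold (limma adjusted p = 0.0134), a call lost without naive replicate 6 (limma adjusted p = 0.0618).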

How the data were processed

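RNA was extracted with Trizol and labelled with biotin, per the labels' protocols. The authors deposited linear intensities per probe set, computed with MAS5 per the submitters' processing notes; no version of it is named there. The 2% trimmed mean was 1500 on the 3 GVHD-activated arrays and 500 on the other 11, so each of the 14 arrays was rescaled to 500.

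The log2 of signal + 32 was used. Probe sets with 1 gene symbol in the platform annotation (34945, beside 932 with several and 9160 with none, controls aside) were kept where at least 3 arrays reached 100, which left 22143. For every gene the probe set with the highest mean log2 signal was used, which left 12212 genes. Genes were tested with limma 3.58.1 in R 4.3.3 (lmFit, eBayes with a trend) on 4 group means over all 14 arrays, and every adjusted p printed is limma's Benjamini-Hochberg value at a threshold of 0.05. The script was first tested on simulated data. Titles speak of biological replicates and name no separate animals; p-values therefore capture only the spread among the samples given, which may be technical, and the number of arrays limits precision.

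The 38 genes, the role groups, the other lists and the words searched in promoters were chosen with earlier results of these data known. Signals of all arrays are given for the 2 genes of highest mean level in each role, for genes called in the GVHD or naive comparison and for tested genes not called in the tumor comparison; other values are examples. Of the other macrophage genes, up to 5 called genes of largest change each way are named. Alternatives were the deposited scale, quantile normalization, centring on T cell genes, offsets of 16 and 64, other filters, the mean over probe sets, array weights, a replicate block, other controls and leaving out arrays. The titles do not say whether equal replicate numbers mark paired samples, and the main fit used no pairing. The deviations of same-numbered arrays correlated at -0.504 to 0.103, which over so few arrays cannot exclude a pairing.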

Additional observations from a re-analysis of the deposited data

Results flagged for a closer look

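In 3 genes tumor-activated replicate 3 stood apart from the other 4 tumor arrays by Dixon's ratio on the log2(signal + 32) scale, the gap to the nearest array divided by the range of the group, for which 0.71 is the critical value with 5 arrays. The ratio was 0.866 for Timd4, 0.727 for Vsig4 and 0.75 for C1qa. On the plain signals, where high values weigh more, 10 of the 36 genes pass that critical value. About 1 in 20 groups is marked in this way without any real outlier.

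For 21 genes the change in the tumor setting differed from the change in the GVHD setting by limma's test of the difference, all of them upward. On the log2 scale the differences were 7.71 for Cd5l, 6.64 for Klf4, 5.82 for Alox15, 5.8 for Marco, 5.34 for Adgre1 and 5.18 for Ccl6. Fcer1g differed by 4.79, Msr1 by 4.49, Cd68 by 4.29 and Csf1r by 4.17. The complement genes differed by 3.9 (C1qa), 3.82 (C1qb) and 3.44 (C1qc). Cd14 differed by 3.68, Ccl9 by 3.64, Tyrobp by 3.53 and Timd4 by 3. Smaller differences were those of Cybb with 2.95, Tlr4 with 2.43, Mrc1 with 2.25 and Spi1 with 1.92.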

How the results depend on the processing

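The count of macrophage genes rising with tumor activation, 32, ran from 28 with a replicate block (Vsig4, Spi1, Lyz2 and Hmox1 were lost) to 35 after centring on T cell genes, and from 29 to 33 when single arrays were left out, with 0 falling under all these settings. The centring raised the median of all genes by tumor activation to 1.85 on the log2 scale, with 8202 genes higher and 30 lower, and values as deposited raised the GVHD median to 1.33, with 7983 higher and 240 lower. The GVHD counts, 4 rising and 1 falling, were less firm. Rising genes numbered 14 as deposited, 0 after T cell centring, 2 without a filter, 2 with the replicate block and 2 against naive replicates 4 to 6. Falling genes numbered 0 after T cell centring, 2 with the offset of 16, with a filter at 200, with array weights, with the replicate block, against naive replicates 4 to 6 and against all 6 naive arrays, and 3 with only the groups compared or without naive replicate 6 and tumor-activated replicate 3. Leaving out single arrays gave 2 to 4 rising and 1 to 2 falling. For the difference of the changes, 21 higher and 0 lower, T cell centring gave 13 higher, the deposited scale 3 lower and array weights 1 lower, and leaving out single arrays gave 15 to 26 higher and 0 lower. Between the naive sets, 1 rising and 0 falling became 0 rising as deposited, after T cell centring, with the offset of 64, without a filter, with a filter at 200, with the mean over probe sets and with the replicate block, and 2 rising with quantile normalization, with only the groups compared and with array weights. Falling genes there numbered 1 with the mean over probe sets or the replicate block, 2 with array weights and 3 without naive replicate 6 and tumor-activated replicate 3, and single arrays left out gave 0 to 1 rising and 0 to 2 falling. Of the further macrophage genes falling with tumor, 2, there were 0 after T cell centring, 5 with array weights, 1 with the replicate block, 1 without naive replicate 6 and tumor-activated replicate 3, 8 against naive replicates 1 to 3 and 6 against all 6 naive arrays, with 1 to 2 (and 34 to 40 rising) on leaving out single arrays. Cd5l changed sign between the naive sets, where leaving out single arrays gave log2 differences from -1.52 to 1.69: -1.52 without naive replicate 6 (limma adjusted p = 0.0414) and to -1.52 without it and tumor-activated replicate 3 (limma adjusted p = 0.00624). The causes of these moves were not tested. Of the values of single genes, 2845 kept their side of the threshold, 113 no longer passed it and 84 newly passed it. Another 2 reversed in sign, with a pass in the main fit or in the alternative. Values that passed in neither were counted among the 2845 even where their sign changed. The array weights were estimated without reaching their tolerance. The arrays give no read depth, and genes near a signal of 100 are close to background.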
